A study of Homo sapiens with 60 samples.

Results

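A549 cells given the high dose of an ethanol extract of Soyo-san were set against A549 cells given vehicle, in 5 of the 60 libraries of the series. The libraries were chosen by their titles. The 2 Soyo-san libraries came from cells treated with 500 µg/mL for 24 h, and the 3 vehicle libraries from cells given DMSO alone for the same time. For DMSO the sample labels state 0.1% while the description of the series states 2%, and the concentration that was applied remains unknown. A549 is an established human lung adenocarcinoma line, and Soyo-san is a multi-herb formula of traditional Korean medicine. RNA was sequenced after 24 h, and the deposited table holds expected counts per gene. The study treated A549 cells with several herbal extracts at graded doses. The remaining libraries with replicates entered to share one estimate of the spread between replicates. They also entered the choice of genes tested, the scaling between libraries and the allowance for GC content and gene length. Soyo-san at 20 µg/mL (low dose, 2 libraries) and at 100 µg/mL (medium dose, 2 libraries) is used below as a dose series. The question was which differences between high dose and vehicle remained once GC content and gene length were allowed for.

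Plant extracts carry many small molecules, and cells meet them with a set of well known transcriptional programmes. The aryl hydrocarbon receptor (AHR) is a ligand-activated transcription factor that binds planar aromatic compounds, moves to the nucleus, pairs with ARNT and switches on detoxifying cytochromes P450 together with its own repressors. The transcription factor ATF4 raises amino acid synthesis genes when the integrated stress response is on, NRF2 raises antioxidant genes such as HMOX1, and SREBP2 raises the enzymes of cholesterol synthesis. A549 cells express these pathways, and they carry a KEAP1 mutation that keeps NRF2 targets high at rest.

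The libraries held 26080816 and 21734171 expected counts at the high dose and 26115827, 29712475 and 27715220 in vehicle. Carcinoma epithelium markers (EPCAM, KRT8, KRT18, KRT19 and CDH1) summed to between 6651 and 7395 CPM (counts scaled to the library total) at the high dose and between 6552 and 6911 CPM in vehicle. Of 6 alveolar type II markers, SFTPA1 and SFTPA2 were at 0 in all 5 libraries and 5 were under 1 CPM. Of the 5 immune markers PTPRC, CD3E and MS4A1 were at 0. Their sum, from CD68 and CD14, lay between 20.6 and 21.0 CPM at the high dose and between 14.8 and 16.7 CPM in vehicle. All 4 endothelial markers stayed under 1 CPM. Fibroblast markers summed to between 35.0 and 39.8 CPM at the high dose and between 36.9 and 38.6 CPM in vehicle.

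High dose replicate 1 stood apart from the other libraries. Mitochondrially encoded mRNA made up 13.3% of its counts, against 8.50% in high dose replicate 2 and between 8.66% and 8.90% in vehicle. The 24 ribosomal protein pseudogenes averaging 2 or more on the log2 CPM scale lay at a median of 1.06 above the vehicle mean on the log2 scale in replicate 1 and 0.26 above it in replicate 2. The chi-square per gene between the 2 high dose libraries was 25.1. It was 7.22 for the low dose pair, 4.75 for the medium dose pair and 2.41 to 2.78 for pairs of vehicle libraries. The SD of the log2 ratio was 0.198, 0.169 and 0.168 for the high, low and medium dose pairs. For pairs of vehicle libraries it was 0.121 to 0.132. For most lists the counts of members called are therefore given also without replicate 1. Nothing in the labels ties a replicate to its own culture, so the spread behind each p-value may be technical. Soyo-san and vehicle also belong to different library sets by their library names (set 14 and set D1), so dose and library set cannot be told apart against vehicle. The comparison of the high with the low dose lies within set 14 and uses no vehicle library.

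Both high dose libraries differed from vehicle along GC content and length. Among genes in the tenth of lowest GC content (28.6% to 38.7% GC in the merged exons), the median log2 fold change was −0.31, and in the tenth of highest GC content (61.0% to 73.8%) it was 0.31. In the tenth of shortest genes it was 0.28 and in the tenth of longest −0.29. Across 18251 genes Spearman's rho was 0.45 with GC content and −0.35 with log2 length, as a description, since genes are not replicates. The low dose, with a rho of 0.50 on GC content, and the 3 Okbyeongpung-san libraries, the other formula of set 14, shared the slope. In the tenth of highest GC content the Okbyeongpung-san medians lay between 0.24 and 0.30 above the vehicle mean on the log2 scale. The source of the slope was not tested.

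**Figure D1:**
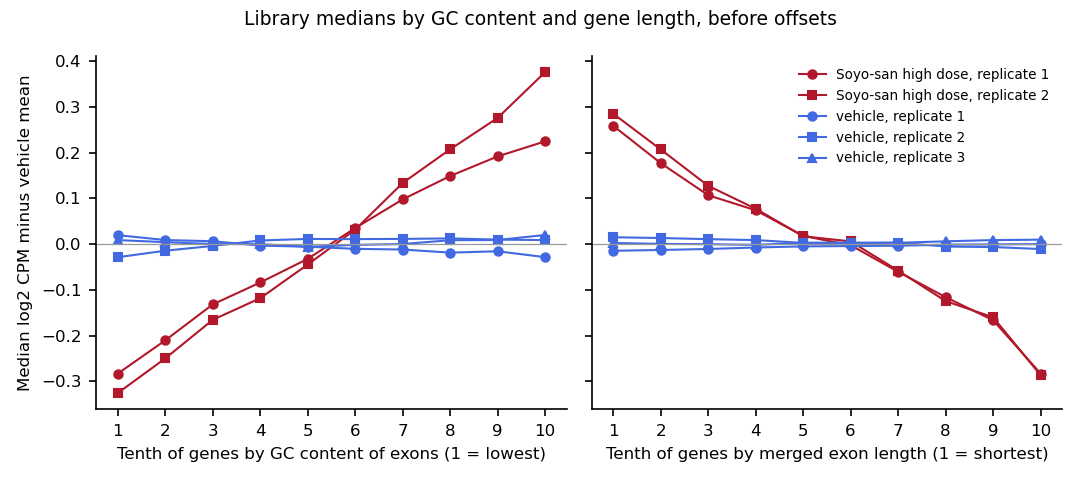
Median log2 CPM of each library minus the vehicle mean (y axis) for 10 equal groups of genes ordered by GC content (left) and by merged exon length (right), with 1 line per library. Genes averaging 2 or more on the log2 CPM scale were used. The 2 high dose libraries lie at −0.28 and −0.33 in the tenth of lowest GC content and at 0.22 and 0.38 in that of highest, while the 3 vehicle libraries stay near 0.

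The allowance was made with offsets, which subtract each library's own smooth trend on GC content and length before the test. They brought rho on GC content down to 0.046 and that on length to −0.043. Without the offsets edgeR's quasi-likelihood test, with Benjamini-Hochberg adjustment over 18396 genes and a threshold of 0.05, called 2399 genes higher and 2861 lower at the high dose than in vehicle, which is 13% and 15.6% of the genes tested, together 28.6%. With the offsets it called 1313 higher (7.14%) and 1625 lower (8.83%), together 16%, while offsets on GC content alone gave 1142 higher and 2166 lower. Called in the same direction in both analyses were 823 genes that rose and 1369 that fell, or 4.47% and 7.44% of all genes tested, together 11.9%. Thus 34.3% of the calls higher and 47.9% of those lower remained. Called only without the offsets were 3067 genes, and called only with them 745. Of the calls of the low dose against the same vehicle libraries, 1972 without (10.7% of genes tested) and 187 with the offsets (1.02%), 145 (0.788%) remained, which is 7.35% of the first. Of the calls of the high against the low dose, 228 without (1.24%) and 317 with the offsets (1.72%), 205 (1.11%) remained, which is 89.9% of the first. Of the 823 genes that rose against vehicle, 58 also rose in both analyses of high against low dose, which share the high dose libraries. Of the 1369 that fell, 109 also fell there. Over all genes tested, 66 rose and 139 fell in both analyses of high against low dose. These are whole-culture RNA levels, in which fewer cells of a state and less RNA per cell cannot be told apart.

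The genes that lost or gained a call differed in GC content and length from all genes tested. Genes called higher only without the offsets had a median GC content of 59.2% and a median length of 3181 bases, and those called lower only without them 40.8% and 8078 bases. Genes that rose in both analyses had a median GC content of 52.2%, near the 48.7% of all genes tested. Genes that fell in both had 42.7%, so a lean towards low GC content remained among them. In the tenth of lowest GC content, formed among genes averaging 2 or more on the log2 CPM scale, 24.6% were still called lower with the offsets, against 58.1% without. In the tenth of highest GC content 6.01% were called lower with the offsets. GAPDH, the glycolytic enzyme often used as a loading control, was called higher without the offsets (log2 fold change 0.36, adjusted p = 0.0198) and was not called with them (0.06, adjusted p = 0.714). ACTB, cytoskeletal actin, went the other way, at −0.18 (adjusted p = 0.209) without the offsets and −0.44 (adjusted p = 0.000203) with them. With the offsets ACTB was also called lower than vehicle at the low dose (−0.36, edgeR adjusted p = 0.0217) and the medium dose (−0.37, edgeR adjusted p = 0.0457). Between the high and low dose it was not called (−0.08, edgeR adjusted p = 0.831). Calls lost to the offsets included SYNE2, the giant nuclear envelope protein nesprin-2, with 43.0% GC and 31374 bases of exon. It had 47.9 and 52.3 CPM at the high dose and 87.1, 84.5 and 90.7 CPM in vehicle, and its log2 fold change was −0.80 (edgeR adjusted p = 0.00496) without and −0.37 (edgeR adjusted p = 0.0837) with the offsets. INO80D and ZNF891, of 39.8% and 39.2% GC, and at the other end C4orf48, of 73.5% GC, lost theirs likewise. NOPCHAP1 (0.74) was called higher and CASTOR2 and ZBTB45P2 (−0.76 and −1.95) lower only with the offsets. PTCD3, a mitochondrial ribosome protein, was the 1 gene called in opposite directions, at −0.14 (adjusted p = 0.0437) without and 0.16 (adjusted p = 0.0494) with the offsets. Both calls were lost with 1 library left out (edgeR adjusted p = 0.190 and 0.230).

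**Figure D2:**
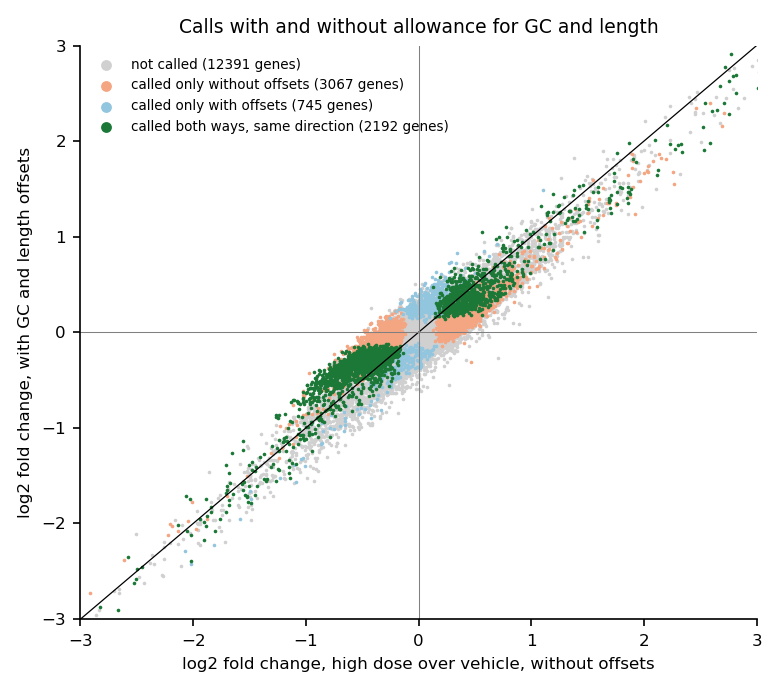
log2 fold change of each gene, high dose over vehicle, without (x axis) and with (y axis) the offsets, coloured by call, with the line of equal values. The 2192 genes called both ways lie in 2 arms, and the 3067 called only without the offsets lie nearer 0 on the y axis. Beyond the axes lie 137 genes, 36 of them called both ways.

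The counts rest on both high dose libraries. Without replicate 1 the 2 analyses called 3586 and 1309 genes, and 351 rose and 642 fell in both. Without replicate 2 they called 2623 and 1459, and 359 rose and 788 fell in both. Leaving out each of the 5 libraries in turn from both analyses, 131 genes rose and 456 fell every time. Genes said below to lose their call with 1 library left out did so without a high dose library, and some also without a vehicle library, and the adjusted p given is then the highest over the 5. Among the 823 that rose, 794 had every high dose library above every vehicle library, and among the 1369 that fell, 1366 had every one below. The calls were made on these same libraries, so this separation is no further support for them. The share over all genes tested is not given here.

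Of the 30 gene lists the AHR battery had the highest median change, and the offsets moved it little. Of its 6 tested genes (7 on the list), 4 rose and 1 fell in both analyses, beside 4.47% and 7.44% of all genes tested. The list had a median log2 fold change of 0.65 without and 0.66 with the offsets, against 0.05 and 0.02 over all genes tested. With either high dose library left out the counts were again 4 and 1. CYP1A1, the P450 that is the classic AHR target, stood at 6.04 and 8.61 CPM at the high dose and at 1.03, 1.03 and 1.70 CPM in vehicle. The groups did not overlap, and the log2 fold change was 2.54 ± 0.22 (SE, n = 2 and 3, edgeR adjusted p = 1.195e-10) without the offsets and 2.40 ± 0.22 (adjusted p = 4.218e-10) with them. CYP1B1, the P450 of steroid and hydrocarbon hydroxylation, stood at 162 and 171 CPM at the high dose and at 101, 97.9 and 99.0 CPM in vehicle, a log2 fold change of 0.75 without and 0.85 ± 0.08 (edgeR adjusted p = 3.798e-10) with the offsets. AHRR, the repressor that competes with AHR for ARNT, had 8.19 and 9.34 CPM at the high dose and 4.48, 5.62 and 4.92 CPM in vehicle. Its log2 fold change was 0.80 without and 0.72 ± 0.13 (edgeR adjusted p = 0.000137) with the offsets.

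TIPARP, the mono-ADP-ribosyltransferase that also represses AHR, had 56.98 and 61.6 CPM at the high dose and 40.4, 40.8 and 39.9 CPM in vehicle, a log2 fold change of 0.55 without and 0.59 ± 0.07 with the offsets (edgeR adjusted p = 1.013e-07). AHR itself was lower, at 34.02 and 35.1 CPM at the high dose and 66.4, 65.4 and 66.7 CPM in vehicle. Its log2 fold change was −0.94 without and −0.67 ± 0.10 (edgeR adjusted p = 4.289e-06) with the offsets. ALDH3A1, an aldehyde dehydrogenase of the battery that A549 cells express strongly, was called only without the offsets (0.39, adjusted p = 0.00242, against 0.13, adjusted p = 0.290).

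The battery also separated the high from the low dose within library set 14. At the low dose CYP1A1 stood at 1.24 and 1.22 CPM, AHRR at 4.21 and 3.70 CPM, CYP1B1 at 84.2 and 84.4 CPM and TIPARP at 31.2 and 30.6 CPM. At the medium dose CYP1A1 stood at 2.02 and 2.33 CPM and AHRR at 5.91 and 6.45 CPM, between the high dose and vehicle. Against vehicle neither was called at the medium dose (with the offsets 0.71, edgeR adjusted p = 0.331, and 0.23, edgeR adjusted p = 0.682), in a comparison that called 12 genes without (0.0652%), 24 with the offsets (0.13%) and 7 in both (0.0381%). The low dose lay at or below vehicle: TIPARP was called lower there in both analyses (−0.38, edgeR adjusted p = 0.00307, without and −0.33, edgeR adjusted p = 0.0166, with the offsets), and the list median of low dose over vehicle was −0.29 and −0.15. The folds of high over low dose therefore include the difference between low dose and vehicle. With the offsets the log2 fold change of high over low dose was 2.53 for CYP1A1 (edgeR adjusted p = 2.459e-08) and 1.18 for AHRR (edgeR adjusted p = 6.163e-06). That of CYP1B1 was 0.99 (edgeR adjusted p = 1.939e-10), that of TIPARP 0.92 (edgeR adjusted p = 1.263e-10) and that of AHR −0.51 (edgeR adjusted p = 0.00455). In this comparison, with 102 genes called higher and 215 lower with the offsets, or 1.72% of all genes tested, all 5 were called in both analyses, beside 1.11% of all genes tested. The high dose libraries are shared with the comparison against vehicle.

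Promoter sequence of 3 of the 4 genes that rose was found in the RefSeq table, and it is shown for the AHR core motif, GCGTG, on either strand. The 250 bases upstream of the first start listed for each gene are printed 5′ to 3′ on the gene's strand (build GRCh38.p14), with the motif in capitals, CACGC being its reverse complement. A start for AHRR and TIPARP other than the first was also listed. The motif is common: 32.2% of 35116 listed promoters hold it in this window. CYP1A1, at chr15:74725529-74725778 on the minus strand, and AHRR, at chr5:321464-321713 on the plus strand, hold 1 copy each, and TIPARP, at chr3:156674340-156674589 on the plus strand, holds 2.
CYP1A1: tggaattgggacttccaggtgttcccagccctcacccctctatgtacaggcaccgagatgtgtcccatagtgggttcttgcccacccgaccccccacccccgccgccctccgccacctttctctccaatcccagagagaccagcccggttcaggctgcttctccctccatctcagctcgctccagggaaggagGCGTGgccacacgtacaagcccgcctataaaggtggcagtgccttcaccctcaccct
AHRR: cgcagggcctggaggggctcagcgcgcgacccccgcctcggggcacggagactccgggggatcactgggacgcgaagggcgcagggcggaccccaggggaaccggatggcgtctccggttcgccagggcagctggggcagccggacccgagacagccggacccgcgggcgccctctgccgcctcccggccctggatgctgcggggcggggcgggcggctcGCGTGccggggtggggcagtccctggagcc
TIPARP: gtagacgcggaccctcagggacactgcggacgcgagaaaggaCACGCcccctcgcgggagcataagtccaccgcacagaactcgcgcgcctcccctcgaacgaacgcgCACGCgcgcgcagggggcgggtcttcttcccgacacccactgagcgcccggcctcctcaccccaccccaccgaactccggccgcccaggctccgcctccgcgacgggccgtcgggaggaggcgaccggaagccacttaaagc

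**Figure D3:**
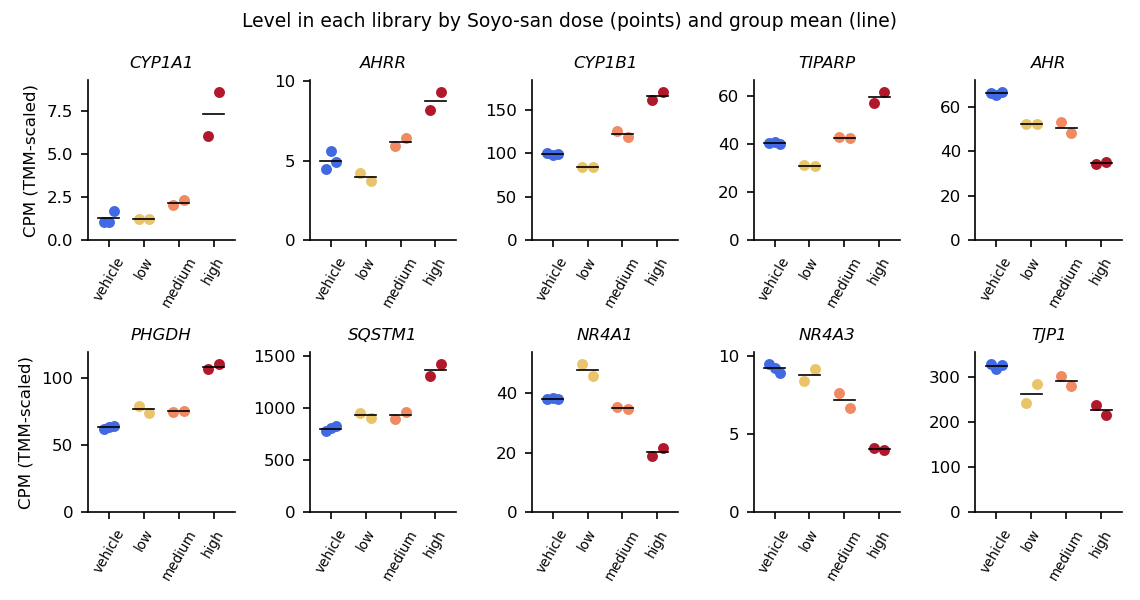
CPM (y axis) of 10 genes in each library (points) with the group mean (line), from vehicle through the low and medium to the high dose of Soyo-san. CYP1A1, AHRR, CYP1B1 and TIPARP, and PHGDH and SQSTM1, are highest at the high dose. AHR, NR4A1, NR4A3 and TJP1 are lowest there.

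Part of the ATF4 list rose, among it PHGDH and ASNS. Over all genes tested, 4.47% rose and 7.44% fell in both analyses. Of 20 tested genes of the list, 6 rose and 1 fell in both analyses (PHGDH, ASNS, TRIB3, STC2, PSAT1 and DDIT3, against CTH), with a list median of 0.30 without and 0.17 with the offsets, against 0.05 and 0.02 over all genes. Without replicate 1, 4 rose. PHGDH, the first enzyme of serine synthesis, had 107 and 111 CPM at the high dose and 62.5, 63.7 and 64.6 CPM in vehicle. Its log2 fold change was 0.77 without and 0.84 ± 0.09 (edgeR adjusted p = 5.206e-08) with the offsets, and 0.54 (edgeR adjusted p = 0.00195) with them over the low dose. ASNS, asparagine synthetase, had 149 and 148 CPM at the high dose and 98.7, 103 and 98.3 CPM in vehicle, at 0.58 without and 0.66 ± 0.07 (edgeR adjusted p = 1.597e-08) with the offsets. TRIB3, the pseudokinase that restrains ATF4, had 114 and 110 CPM at the high dose and 61.5, 64.2 and 66.0 CPM in vehicle, at 0.81 without and 0.54 ± 0.10 with the offsets (edgeR adjusted p = 0.000192). In all 3 genes every high dose library was above every vehicle library.

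STC2, a secreted glycoprotein induced by stress, had 31.1 and 32.8 CPM at the high dose and 20.2, 21.3 and 23.2 CPM in vehicle (0.57 without and 0.54 with the offsets, edgeR adjusted p = 0.00114 with them). CTH, the enzyme that makes cysteine from cystathionine, fell (−0.52 and −0.48). With 1 library left out CTH, PSAT1 and DDIT3 lost their calls (with the offsets, edgeR adjusted p = 0.358, 0.0523 and 0.212). CBS, which makes that cystathionine and is not on the list, rose: 35.0 and 44.5 CPM at the high dose and 24.5, 23.0 and 21.6 CPM in vehicle, at 0.63 ± 0.08 with the offsets (edgeR adjusted p = 4.095e-07). CHAC1, a glutathione-degrading ATF4 target, was called only without the offsets (0.58, against 0.26 with them, edgeR adjusted p = 0.315). SLC7A11, the cystine transporter, fell only without them (−0.61, against −0.29, edgeR adjusted p = 0.233). The composite ATF4 and C/EBP motif TGATGNAA was found in the window of 1 of the 6 genes that rose, ASNS, and in 3.14% of all listed promoters. The ASNS window, at chr7:97872409-97872658 on the minus strand (GRCh38.p14, 5′ to 3′, first of the listed starts, motif in capitals), is shown because it is the member with a match.
ASNS: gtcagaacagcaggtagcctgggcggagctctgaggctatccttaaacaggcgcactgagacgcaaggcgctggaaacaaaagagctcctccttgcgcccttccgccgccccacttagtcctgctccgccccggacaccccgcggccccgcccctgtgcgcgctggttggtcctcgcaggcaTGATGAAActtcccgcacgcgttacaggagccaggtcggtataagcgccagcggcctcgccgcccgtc

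Of 21 NRF2 targets 5 rose in both analyses (HMOX1, FTH1, AKR1C2, TKT and ABCC3), beside 4.47% of all genes tested. Called higher were 8 with and 10 without the offsets, and 2 rose in both without replicate 1. HMOX1, the haem oxygenase, had 248 and 264 CPM at the high dose and 163, 160 and 159 CPM in vehicle. Its log2 fold change was 0.67 without and 0.41 ± 0.06 (edgeR adjusted p = 5.337e-06) with the offsets. FTL, the ferritin light chain, was called only without the offsets (0.47, against 0.17, edgeR adjusted p = 0.297). With 1 library left out FTH1, TKT and ABCC3 lost their calls with the offsets (edgeR adjusted p = 0.364, 0.175 and 0.100), and AKR1C2 lost that without them (0.151). The list median was 0.23 without and 0.12 with the offsets.

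Several enzymes of sterol synthesis rose. Of 23 tested genes of cholesterol synthesis and uptake 8 rose in both analyses, beside 4.47% of all genes tested: MVD, FDPS, FDFT1, LSS, EBP, TM7SF2, DHCR7 and HSD17B7. Without replicate 1, 7 rose, and without replicate 2, 5. FDPS, the farnesyl diphosphate synthase, had 129 and 141 CPM at the high dose and 89.5, 92.8 and 90.2 CPM in vehicle (0.57 without and 0.39 ± 0.08 with the offsets, edgeR adjusted p = 0.000772). TM7SF2, a sterol reductase, had 9.67 and 10.7 CPM at the high dose and 5.04, 6.90 and 5.61 CPM in vehicle (0.80 and 0.49 ± 0.11, edgeR adjusted p = 0.00236 with the offsets). With 1 library left out MVD, FDFT1 and HSD17B7 lost their calls with the offsets (edgeR adjusted p = 0.118, 0.0709 and 0.115). The list median was 0.18 without and 0.12 with the offsets.

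In fatty acid metabolism the desaturases FADS2 and FADS1 rose. Beside the counts of this paragraph stand 4.47% of all genes tested that rose and 7.44% that fell in both analyses. FADS2 had 607 and 637 CPM at the high dose and 454, 464 and 455 CPM in vehicle (0.42 with the offsets), and FADS1 had 409 and 417 CPM at the high dose and 344, 347 and 345 CPM in vehicle (0.32). ACSS2, which makes acetyl-CoA from acetate, rose (0.30), and ACLY, which makes it from citrate, fell (−0.26), as did the elongase ELOVL5 (−0.18), but these 3 lost their calls with 1 library left out (edgeR adjusted p = 0.128, 0.0729 and 0.244 with the offsets). Of the 11 tested genes of fatty acid synthesis 3 rose and 2 fell in both analyses, and without replicate 1, 2 rose and 0 fell. PLIN2, the coat protein of lipid droplets, had 25.8 and 24.6 CPM at the high dose and 16.7, 16.4 and 17.6 CPM in vehicle, a log2 fold change of 0.58 without and 0.63 ± 0.10 (edgeR adjusted p = 1.157e-05) with the offsets. ACADVL, of mitochondrial fatty acid oxidation, rose at 0.36 ± 0.06 with the offsets (edgeR adjusted p = 1.201e-05). PLIN2 and ACADVL were the 2 of 10 PPAR targets and oxidation genes called in both analyses, and 2 rose without replicate 1.

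Among genes of the lysosome and of autophagy SQSTM1 rose. Of 17 tested, 7 were called higher without the offsets and 3 with them, and 2 in both (SQSTM1 and CTSL, CTSL being lost with 1 library left out, edgeR adjusted p = 0.607). The 2 of 7 that remained stand beside 34.3% of all genes called higher, and without replicate 1 the count in both was again 2. SQSTM1, the p62 autophagy receptor, had 1312 and 1422 CPM at the high dose and 775, 810 and 826 CPM in vehicle. Its log2 fold change was 0.77 without and 0.66 ± 0.07 (edgeR adjusted p = 2.633e-08) with the offsets, and 0.59 (edgeR adjusted p = 8.835e-06) over the low dose with them. CTSD, cathepsin D, with a GC content of 64.2%, was called only without the offsets (0.46, against 0.12, edgeR adjusted p = 0.186). NEU1, the lysosomal sialidase, and FLCN, folliculin of the mTORC1 pathway, lie outside the list and are named because they kept their call with any 1 library left out. NEU1 had 32.7 and 30.1 CPM at the high dose and 16.1, 15.4 and 16.6 CPM in vehicle, at 0.89 ± 0.11 with the offsets (edgeR adjusted p = 2.269e-07). FLCN had 37.6 and 40.3 CPM at the high dose and 24.9, 23.9 and 24.9 CPM in vehicle, at 0.69 ± 0.11 (edgeR adjusted p = 2.584e-05).

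The immediate early nuclear receptors NR4A1 and NR4A3, orphan receptors induced within an hour of many stimuli, fell together with DUSP1, the phosphatase that switches off MAP kinases. These were the 3 of 13 tested genes of the list called in both analyses, and all 3 were lower without either high dose library. Over all genes tested, 7.44% fell in both. NR4A1 had 18.99 and 21.4 CPM at the high dose and 38.0, 38.3 and 38.1 CPM in vehicle. Its log2 fold change was −0.92 without and −1.06 ± 0.09 (edgeR adjusted p = 2.873e-10) with the offsets. NR4A3 had 4.14 and 4.01 CPM at the high dose and 9.48, 9.23 and 8.90 CPM in vehicle, at −1.17 without and −1.09 ± 0.14 (edgeR adjusted p = 3.253e-07) with the offsets. At the low dose NR4A1 stood at 49.8 and 45.9 CPM and NR4A3 at 8.43 and 9.14 CPM. The high over low dose log2 fold changes were −1.21 and −1.10 with the offsets (edgeR adjusted p = 9.083e-11 and 8.835e-06). PTGS2, the inducible cyclooxygenase, had 17.1 and 16.5 CPM at the high dose and 33.7, 29.04 and 31.0 CPM in vehicle, at −0.69 ± 0.13 with the offsets (edgeR adjusted p = 0.000252). ID4, the inhibitor of helix-loop-helix factors, was at −0.73 ± 0.11 (edgeR adjusted p = 8.888e-06).

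DSP and CDH2 fell. DSP, the desmosome plaque protein, had 137 and 142 CPM at the high dose and 214, 210 and 218 CPM in vehicle, at −0.62 without and −0.47 ± 0.08 (edgeR adjusted p = 4.277e-05) with the offsets. TJP1, the tight junction scaffold, was at −0.52 without and −0.23 with them (edgeR adjusted p = 0.0451), and it lost that call with 1 library left out (edgeR adjusted p = 0.338). KRT19, a keratin, was called only without the offsets (0.54, against 0.25, edgeR adjusted p = 0.0717). CDH2, N-cadherin, fell at −0.36 ± 0.07 (edgeR adjusted p = 0.000140), and TGFB2 and THBS1 fell at −0.56 and −0.34 with the offsets, calls lost with 1 library left out (edgeR adjusted p = 0.11 and 0.136). These are 2 of 11 keratin and junction genes and 3 of 15 mesenchymal genes, beside 7.44% of all genes tested, and without replicate 1 they were 1 and 2. MUC16, the CA-125 mucin, had 0.886 and 0.919 CPM at the high dose and 2.78, 2.90 and 3.18 CPM in vehicle. Its log2 fold change was −1.71 without and −1.39 ± 0.28 (edgeR adjusted p = 0.000562) with the offsets. It was the 1 of 6 tested mucins called in both analyses, beside 7.44% of all genes tested that fell in both.

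Of 19 mitosis genes 9 were called lower without the offsets, 7 with them and 4 in both (ASPM, TOP2A, KIF11 and CCNA2), and the list median was −0.24 without and −0.20 with the offsets. The 4 of 9 that remained stand beside 47.9% of all genes called lower. Without replicate 1, 1 fell in both. TOP2A, KIF11 and CCNA2 lost their calls with 1 library left out (edgeR adjusted p = 0.332, 0.11 and 0.193 with the offsets). ASPM, the spindle pole protein, had 105 and 106 CPM at the high dose and 193, 182 and 190 CPM in vehicle, at −0.84 without and −0.49 ± 0.09 (edgeR adjusted p = 0.000206) with them. MKI67, the proliferation marker, was called only without the offsets (−0.40, against −0.21, edgeR adjusted p = 0.247). In DNA replication RRM2, a ribonucleotide reductase subunit, and POLA1, a DNA polymerase alpha subunit, were the 2 of 20 that fell in both, at −0.32 and −0.24 with the offsets, beside 7.44% of all genes tested, and the count was 2 without replicate 1.

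Of 20 p53 targets, 7 were called higher and 4 lower without the offsets, beside 13% and 15.6% of all genes tested. With them 1 was called higher and 4 lower, beside 7.14% and 8.83%. The 1 of 7 called higher that remained stands beside 34.3% of all genes called higher. Over all genes tested 4.47% rose and 7.44% fell in both, the background for each list of this paragraph. In both analyses GDF15, a stress-induced cytokine, rose (0.72 and 0.42), with 32.9 and 33.4 CPM at the high dose and 19.6, 20.7 and 20.3 CPM in vehicle, while SESN1 and RRM2B fell (both −0.33 with the offsets). Without replicate 1 none of the 20 was called in both. All 3 lost their calls with the offsets when 1 library was left out (edgeR adjusted p = 0.0767, 0.183 and 0.272). Of the interferon genes 2 of 11 rose in both, among them IFIT3, and 2 without replicate 1. Of the clock genes PER2 and CLOCK fell in both (2 of 15, at −0.45 and −0.33 with the offsets), 2 fell without replicate 1 and 0 without replicate 2. IFIT3, PER2 and CLOCK lost their calls with 1 library left out (edgeR adjusted p = 0.238, 0.0642 and 0.0624 with the offsets).

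Ribosomal protein and respiratory chain genes are short, with a median exon length of 3056 and 2363 bases against 4165 over all genes tested. Of 78 cytosolic ribosomal protein genes 42 were called higher without the offsets, 18 with them and 16 in both, with a list median of 0.36 and 0.29. RPS6 had 1364 and 1336 CPM at the high dose and 1069, 1087 and 1117 CPM in vehicle, at 0.31 without and 0.33 with the offsets. The 16 of 42 that remained stand beside 34.3% of all genes called higher, and without replicate 1, 7 rose in both. Of 60 nuclear respiratory chain subunits 26 were called higher without the offsets, 13 with them and 8 in both. In both lists fewer genes were called in both analyses without replicate 2 than without replicate 1. With the offsets the ribosomal protein median was 0.38 without replicate 1 and 0.20 without replicate 2, and the respiratory chain median was 0.30 and 0.18. The 8 of 26 that remained stand beside the same 34.3%. Over all genes tested, 13% were called higher without the offsets, 7.14% with them and 4.47% in both. The 9 proteasome subunits called without the offsets and the 5 called with them had no gene in common. Of 399 zinc finger genes named ZNF 39 fell and 6 rose in both analyses, against 92 and 28 without the offsets, beside 7.44% and 4.47% of all genes tested in both, and 20 fell without replicate 1. The 13 mitochondrially encoded mRNAs were at a median of 0.40 without and 0.23 with the offsets, and at −0.01 with the offsets without replicate 1. The processed pseudogenes EEF1A1P6, RPL10P16, FTH1P10, RPL13AP5, RPLP0P6 and PPIAP22 were called higher in both analyses, but each lost both calls without replicate 1. EEF1A1P6 had 33.7 and 7.35 CPM at the high dose and 5.55, 5.52 and 5.19 CPM in vehicle. Their reads can be shared with the parent genes, so these values are uncertain.

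**Figure D4:**
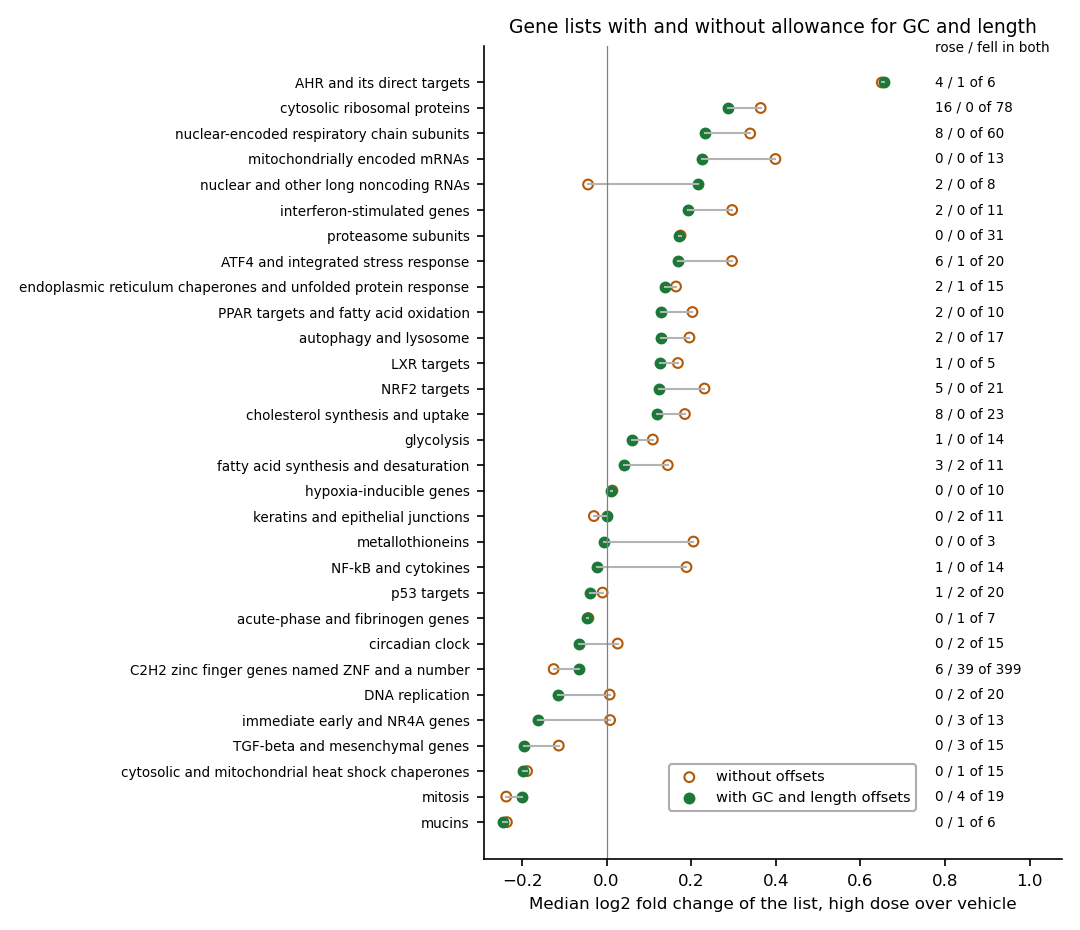
Median log2 fold change of 30 gene lists, high dose over vehicle (x axis), without (open) and with (filled) the offsets, with the number that rose and fell in both analyses at the right. The AHR list lies highest at 0.65 and 0.66, and 8 of 23 cholesterol genes and 16 of 78 ribosomal protein genes rose in both.

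Among protein-coding genes of every function with a mean of 2 or more on the log2 CPM scale, 28 that kept their call with any 1 library left out were taken by the size of the smaller of their changes in the 2 analyses, a choice made after the values were seen. CYP1A1 and MUC16 average less than that level and are left out of it. The largest rises with the offsets among the 28 were those of UAP1L1, a homologue of an amino sugar pyrophosphorylase, with 15.7 and 14.6 CPM at the high dose and 6.23, 7.15 and 6.85 CPM in vehicle (0.94 ± 0.08 with the offsets, edgeR adjusted p = 3.759e-10), NEU1 and NUPR1. NUPR1, a stress-inducible chromatin protein, had 16.7 and 20.8 CPM at the high dose and 10.2, 9.87 and 9.92 CPM in vehicle. STAT4, a cytokine signal transducer, had 21.8 and 19.9 CPM at the high dose and 14.0, 12.2 and 11.4 CPM in vehicle (0.88 ± 0.12, edgeR adjusted p = 1.303e-06). ACSF2, an acyl-CoA synthetase, SLC43A1, an amino acid transporter, and SULT1A1, a sulfotransferase of xenobiotic metabolism, rose as well, at 0.70, 0.66 and 0.65.

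The largest falls among them were those of KLHL11, a ubiquitin ligase adaptor, with 3.17 and 3.34 CPM at the high dose and 9.40, 9.27 and 10.0 CPM in vehicle (−1.65 ± 0.30 with the offsets, edgeR adjusted p = 0.000167), RBM15, of the RNA methylation complex (−1.20 ± 0.23), and NBEAL1 (−1.14 ± 0.26). HAVCR1, the kidney injury molecule, had 32.7 and 30.0 CPM at the high dose and 55.8, 57.3 and 60.6 CPM in vehicle (−0.92 ± 0.13, edgeR adjusted p = 4.653e-06). NFAT5, the osmotic stress transcription factor, had 59.3 and 56.7 CPM at the high dose and 144, 132 and 142 CPM in vehicle, at −1.27 without and −0.87 ± 0.14 (edgeR adjusted p = 1.491e-05) with the offsets. At the low dose KLHL11 (5.56 and 4.49 CPM), NBEAL1 (14.8 and 20.4 CPM) and NFAT5 (72.4 and 90.1 CPM) were also below every vehicle library. NFAT5 was called lower there with the offsets (−0.54, edgeR adjusted p = 0.0376). None of these genes was called between the high and low dose with the offsets (−0.69, −0.49 and −0.33, edgeR adjusted p = 0.452, 0.560 and 0.347). VGLL3, AKAP11, MFAP3 and FAM169A fell by 0.86, 0.85, 0.94 and 0.81 with the offsets.

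**Figure D5:**
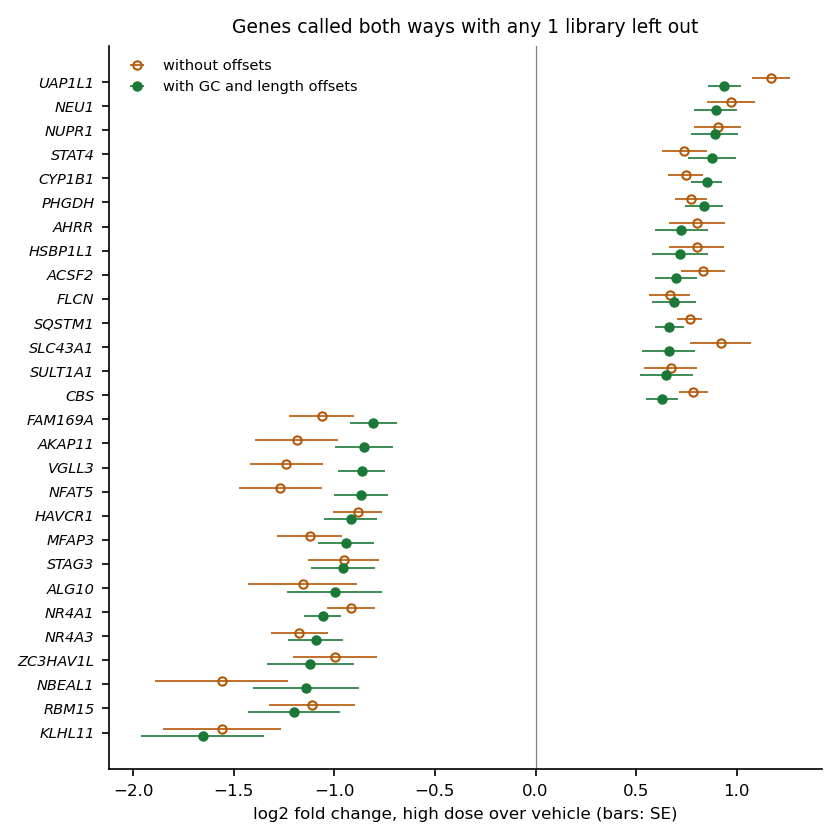
log2 fold change, high dose over vehicle (x axis, bars are SE), of 28 genes that kept their call in both analyses with any 1 library left out, without (open) and with (filled) the offsets. The genes run from UAP1L1 at 0.94 with the offsets to KLHL11 at −1.65.

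Among low-GC and long genes the fall was larger without the offsets than with them. ZBED6 had 7.05 and 8.66 CPM at the high dose and 33.6, 32.1 and 32.8 CPM in vehicle, at −2.07 without and −1.71 ± 0.52 (edgeR adjusted p = 0.0192) with the offsets, and its highest adjusted p with 1 library left out was 0.179. PWAR5, CCDC144A, CCDC144BP and REL also lost the call with the offsets when 1 library was left out. TGFB2-OT1, a transcript that overlaps TGFB2 on the same strand, had 6.42 and 6.82 CPM at the high dose and no count in the 3 vehicle libraries, at least 55.6-fold higher against a floor of 3 counts per vehicle library. It had 3.09 and 0 CPM at the low dose, and since reads can be divided between it and TGFB2, which fell, the value is uncertain. MALAT1, a nuclear long noncoding RNA, had 964 and 1021 CPM at the high dose and 620, 599 and 627 CPM in vehicle, at 0.69 without and 0.98 ± 0.20 (edgeR adjusted p = 0.000542) with the offsets, and the call without them was lost with 1 library left out (edgeR adjusted p = 0.139).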

How the data were processed

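RNA sequencing of A549 cells was measured in 60 libraries. The deposited table holds expected counts per gene, made by the authors on GRCh38; the submitters' processing notes name RSEM 1.3.3, STAR 2.7.3a, Trim Galore 0.6.5 and FastQC 0.11.9. No source used here gives the annotation release or the strand setting of the counting, though the kit named in the labels' protocols keeps strand. Of the values, 9.95% have decimals, and all were rounded to whole counts.

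Groups follow the labels. edgeR 4.0.16 in R 4.3.3 (TMM scaling, filterByExpr, quasi-likelihood F-test, two-sided) was fitted to 57 libraries in 22 groups, which left 18396 of 60675 genes and 35 residual degrees of freedom. Benjamini-Hochberg adjustment ran over every gene tested, and calls have an adjusted p under 0.05. Standard errors were taken as the size of the log2 fold change over the root of its F statistic, and n is 2 and 3 wherever it is not given. CPM is scaled by TMM. For the offsets, each library's log2 CPM (prior count 2) minus the gene's mean was fitted by natural splines (5 degrees of freedom each) on GC content and log2 length of the merged GENCODE 29 exons, and the fitted trend was added to the log library size. The 145 tested genes without these features received the library size only. A trend that the treatment itself caused would be removed too. Both analyses were tested on simulated data with known changes. The simulated libraries carried the fitted trend itself, so they cannot show whether that form of trend is right. They held no outlying replicate and no other difference between library sets.

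The members and gene lists were chosen with earlier results of these data known. Most genes named by rule have a symbol, a mean log2 CPM of at least 2 and groups that do not overlap. These are the 8 highest and 8 lowest called in both analyses and 3 each called only without the offsets. The 4 each with the largest difference between the high and low dose belong there too. For the 2 each called only with the offsets the groups could overlap. The 2 foremost members of lists with at least 1 in 3 members called one way had no condition on level or overlap. Genes that kept their call with any 1 library left out, and other list members, were chosen after their values were seen. A few genes that these rules cover are not reported here. Alternatives were DESeq2 1.42.0 size factors and Wald test, no filter, fewer libraries, a replicate block, other forms of the offsets and each library left out. Promoters are RefSeq's on GRCh38.p14. Positions, types and symbols come from GENCODE 29. The medium dose was tested against vehicle in the same fits, and Okbyeongpung-san, with 1 library per dose, was left out of the fits. Total counts per library ran from 17113963 to 33363661, and n counts libraries.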

Additional observations from a re-analysis of the deposited data

How the results depend on the processing

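Of the counts of genes called, DESeq2's size factors, narrower splines, binned offsets, and the GC content and length of the longest transcript moved none by over 1.5 times, nor did the DESeq2 Wald test. For the high dose against vehicle without the offsets, other settings gave a range of 4828 to 7316, and 365 at 2-fold or more. With the offsets it was 4995 with only the vehicle and Soyo-san libraries, 4949 with only the 2 groups compared, 4411 with offsets on length only, 3308 with offsets on GC content only (1142 higher and 2166 lower), and 248 at 2-fold or more. Under all 6 forms of the offsets 451 genes rose and 912 fell, as they did without offsets.

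For the low dose against vehicle the count without the offsets was 4921 with only the vehicle and Soyo-san libraries, 5609 with only the 2 groups and 56 at 2-fold or more. With the offsets it was 673 with no filter on low counts, 1874 and 2685 with fewer libraries as before, 1480 with offsets on length only and 8 at 2-fold or more. For the high against the low dose the count without the offsets was 508 with no filter, 855 and 140 with fewer libraries and 21 at 2-fold or more. With the offsets it was 874 with only the vehicle and Soyo-san libraries and 22 at 2-fold or more.

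Leaving out 1 library gave 2623 to 4405 genes for the high dose against vehicle without the offsets, 1309 to 2247 with them and 993 to 1697 in both. The low values came without high dose replicate 2, replicate 1 and replicate 1. For the low dose the ranges were 8 to 1231 and 1 to 45, lowest without low dose replicate 1, though each of the 5 libraries moved the count by over 1.5 times. For the high against the low dose they were 36 to 132 and 82 to 187, where each of the 4 libraries did so. These alternatives leave a group with fewer libraries, and where 1 is left it is assumed to vary like the other groups. RPS2P46, a pseudogene called without the offsets, ranged with the offsets from −0.018 without high dose replicate 1 (edgeR adjusted p = 0.992) to 1.37 without replicate 2.

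Replicate numbers 1 and 2 are shared by Soyo-san and vehicle. The deviations of same-numbered libraries correlated at 0.155 and 0.129 for the high dose and at 0.130 and 0.087 for the medium dose. For the low dose the values were −0.043 and −0.086, and between the high and low doses −0.067. With 2 libraries per dose, crossing the numbers only reverses the signs of these values. They therefore cannot tell whether same-numbered libraries are pairs. The replicate block gave 5745 and 3284 genes for the high dose, 2662 and 464 for the low dose and 254 and 338 for high against low, each without and with the offsets. Chosen after the data were seen were the counts called in both analyses with a library left out.

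Depth was similar in the 5 libraries. With 2 libraries at the high dose, and 1 of them apart from the rest, small changes could not be resolved.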

Other observations

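Values outside the comparisons bear on the doses of Soyo-san. At the medium dose NR4A1 stood at 35.3 and 34.6 CPM, against 38.0, 38.3 and 38.1 CPM in vehicle, and SQSTM1 at 894 and 964 CPM, against 775, 810 and 826 CPM in vehicle. Neither was called against vehicle at that dose, NR4A1 at −0.13 without and −0.24 with the offsets (edgeR adjusted p = 0.656 and 0.374) and SQSTM1 at 0.21 and 0.12 (edgeR adjusted p = 0.158 and 0.694). The high dose of Okbyeongpung-san, with 1 library per dose in the same library set, had 5.45 CPM of CYP1A1, 7.61 CPM of AHRR, 170.5 CPM of CYP1B1 and 57.07 CPM of TIPARP. These 4 levels are above those of the 3 vehicle libraries given above, and with 1 library they were not tested.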
